A study of Homo sapiens with 6 samples.

Results

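DHRS2 and 7 of its relatives were examined in HK-2 cells, an immortalised line of human proximal tubule epithelium, with and without oxidised low-density lipoprotein (OX-LDL). The 8 genes were DHRS1, DHRS2, DHRS4, DHRS7, DHRS9, DHRS11, DHRS13 and DHRSX, taken by exact gene name from 58825 genes in the table. DHRS2 was singled out because of its difference between these very libraries, and the relatives were chosen to set that difference in its family. The OX-LDL against Control values of the 8 genes are therefore given as a description, with no test.

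Poly(A) RNA was sequenced from 3 untreated libraries (Control 1 to 3) and from 3 libraries of cells given OX-LDL at 25 µg/mL for 48 h (OX-LDL 1 to 3). All 6 came from the same line, and the study's methods place a serum starvation before OX-LDL. The study describes its cell experiments as independent, but no label ties a library to a culture of its own. The p-values measure the spread between these libraries, whatever its source. The deposited total counts ran from 62561347 to 76797607 per library, and about 4 deposited counts stood for 1 read pair. Levels are given in FPKM, fragments scaled to transcript length and library size, which allows genes of different length to be compared. In bulk RNA, fewer expressing cells and less RNA per cell cannot be told apart.

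The renal epithelial label was only partly matched by its markers. Of 12 proximal tubule and renal genes, 4 averaged 1 FPKM or more and 6 were under 0.1 FPKM, with the endocytic receptor LRP2 and the organic anion transporter SLC22A6 at 0 counts in every library. Their summed level was 135 to 163 FPKM in Control and 133 to 146 in OX-LDL, over members that differed in opposite directions. PAX8, a transcription factor of renal epithelium, fell from 46.6 ± 12.9 to 19.4 ± 4.17 FPKM (edgeR adjusted p = 0.0182), while DPP4, a brush border peptidase, was at 85.9 ± 7.18 and 97.9 ± 1.52 FPKM (edgeR adjusted p = 0.101). The 8 genes of epithelium in culture (KRT7, KRT8, KRT18, KRT19, EPCAM, CDH1, CDH2 and VIM) summed to 259 to 298 FPKM in Control and 429 to 525 in OX-LDL. VIM and CDH2 are also mesenchymal markers, and VIM rose from 97.1 ± 8.61 to 214 ± 24.1 FPKM (edgeR adjusted p = 0.00211). CDH2 rose from 37.7 ± 0.188 to 45.1 ± 2.89 FPKM (edgeR adjusted p = 0.0367). Keratins rose too, KRT19 from 5.47 ± 0.481 to 20.6 ± 4.83 FPKM (edgeR adjusted p = 0.00207) and KRT8 from 37.5 ± 6.50 to 65.4 ± 4.96 FPKM (edgeR adjusted p = 0.0116). KRT7 and KRT18 were higher in OX-LDL without overlap but did not pass (edgeR adjusted p = 0.0539 and 0.123). The epithelial adhesion genes EPCAM, at 51.2 ± 3.68 and 53.1 ± 3.13 FPKM, and CDH1, at 0.0968 ± 0.0611 and 0.106 ± 0.0400 FPKM, did not pass the test. The 6 leukocyte genes summed to 3.15 to 7.79 FPKM in Control and 9.17 to 14.1 in OX-LDL, and 4 of them were under 0.1 FPKM. Nearly all of the sum was CD68, a lysosomal gene. CD68, at 5.21 ± 2.39 and 10.8 ± 2.45 FPKM, did not pass the test (edgeR adjusted p = 0.0858). The 4 endothelial genes stayed at or under 0.0959 FPKM in sum, the 4 podocyte genes summed to 0.450 to 0.734 FPKM, and the 7 fibroblast genes to 8.77 to 14.1 FPKM. The part of these shifts in the results below was not tested.

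Short-chain dehydrogenases/reductases are a large superfamily of enzymes that use NAD(H) or NADP(H) to oxidise alcohols or reduce carbonyl groups. Their substrates include retinoids, steroids, fatty acids, prostaglandins, sugars and foreign carbonyl compounds, and many members differ widely in sequence while sharing the Rossmann fold that holds the cofactor. DHRS2, also called HEP27, is an NADPH-dependent dicarbonyl reductase that has been described to bind MDM2, a ubiquitin ligase. DHRS4 is a peroxisomal carbonyl and retinal reductase, and is the closest relative of DHRS2 among the 8 genes.

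The promoter windows set DHRS2 apart from most of the genes it was compared with, so 3 windows of 300 bases are shown here, 250 before and 50 after the RefSeq start (GRCh38.p14). Capitals mark matches on either strand to the TATA box letters TATAAA, to the GC box letters that the DHRS4 window carries 4 times, spelled GGGCGG, and to the AP-1 motif. The DHRS2 window is chr14:23629865-23630164 on the plus strand, the DHRS4 window is chr14:23953520-23953819 on the plus strand, and the DHRS9 window is chr2:169069313-169069612 on the plus strand, the 1 member window that held the AP-1 motif.
DHRS2: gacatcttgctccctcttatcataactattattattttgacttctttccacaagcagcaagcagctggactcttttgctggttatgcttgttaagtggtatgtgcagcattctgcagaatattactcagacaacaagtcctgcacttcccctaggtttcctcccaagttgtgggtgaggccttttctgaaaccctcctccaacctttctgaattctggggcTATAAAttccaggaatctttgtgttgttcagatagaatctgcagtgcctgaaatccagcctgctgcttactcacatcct
DHRS4: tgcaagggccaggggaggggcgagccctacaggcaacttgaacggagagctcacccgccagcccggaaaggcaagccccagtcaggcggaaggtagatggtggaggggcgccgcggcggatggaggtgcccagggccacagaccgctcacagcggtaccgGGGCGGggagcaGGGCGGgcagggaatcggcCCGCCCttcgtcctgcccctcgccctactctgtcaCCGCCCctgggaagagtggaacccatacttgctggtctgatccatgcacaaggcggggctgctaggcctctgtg
DHRS9: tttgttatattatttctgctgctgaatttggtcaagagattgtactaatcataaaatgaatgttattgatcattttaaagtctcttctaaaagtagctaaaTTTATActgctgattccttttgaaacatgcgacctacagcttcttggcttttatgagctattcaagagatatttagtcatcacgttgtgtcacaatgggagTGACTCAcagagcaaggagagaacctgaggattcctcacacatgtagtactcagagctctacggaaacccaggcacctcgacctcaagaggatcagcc

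The DHRS2 window held TATAAA 29 bases before the start, no CG dinucleotide, and 44% G and C. Among 35116 RefSeq windows of the same length, 11.53% held this TATA box on either strand, 3.961% had no CG dinucleotide, and the median G and C content was 58.67%. The DHRS4 window lay at 68.67% G and C, with 20 CG dinucleotides and 4 matches to the GC box, which 44.95% of all windows held. The 4 DHRS9 windows had 31.33% to 39.33% G and C and 0 to 4 CG dinucleotides, and 3 of them held the TATA box. The 6 windows of DHRS1, DHRS11, DHRS13, DHRSX and DHRS4 had 65.67% to 78.67% G and C. In all, 4 of the 11 member windows held the TATA box and 4 held the GC box. The letters CCAAT were in 34.61% of all windows, searched on both strands like every motif here. The E-box letters, spelled CACGTG, were in 7.256% of windows. The cAMP response element, spelled TGACGTCA, was in 1.848% of windows. The AP-1 motif was searched as TGANTCA, where N is any base, and was in 7.709% of windows. None of these 4 was in the DHRS2 or DHRS4 window. A match is a run of letters, not a site shown to be bound.

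**Figure D1:**
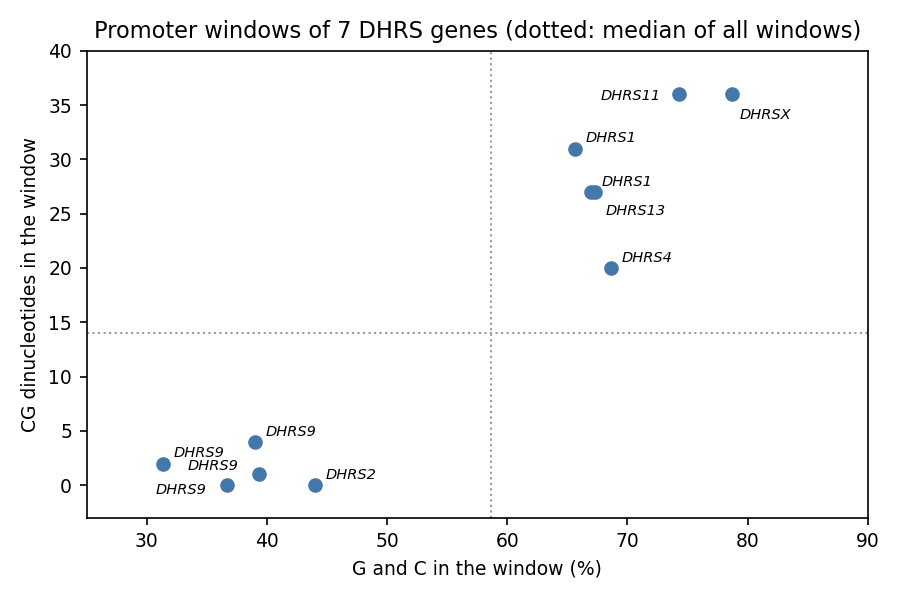
G and C content (%, x axis) and number of CG dinucleotides (y axis) of the 11 promoter windows of 7 DHRS genes, 1 point for each window. Dotted lines are the medians of all 35116 windows, 58.67% and 14, and the DHRS2 and DHRS9 windows lie below both while all other windows lie above both.

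Among the members, coding sequence placed DHRS2 nearest to DHRS4. Over the longest complete coding sequence of each gene, DHRS2 (903 bases) and DHRS4 (837 bases) had the same base at 74.13% of aligned positions, the highest value of 28 member pairs. The other 27 pairs lay between 60.04% and 70.57%. The longest run shared by DHRS2 and DHRS4 was 22 bases, shown in capitals with its surroundings (coding bases 164 to 245 of DHRS2 and 152 to 233 of DHRS4). No other member pair shared a run longer than 14 bases. DHRS4L2, which is not a member, shared the same 22 bases with DHRS2. Its shorter coding sequence (699 bases) matched DHRS2 at 74.89% of aligned positions.
DHRS2: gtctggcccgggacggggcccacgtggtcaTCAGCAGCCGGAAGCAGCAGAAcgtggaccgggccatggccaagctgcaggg
DHRS4: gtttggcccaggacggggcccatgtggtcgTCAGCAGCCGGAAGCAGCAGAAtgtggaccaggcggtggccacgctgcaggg

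The 22 shared bases are fewer than the 150 bases of a read. DHRS4 and its neighbouring copy DHRS4L2 were closer, with 97.28% of aligned coding bases equal and an unbroken shared run of 185 bases, longer than a read. The split of reads between DHRS4 and DHRS4L2 is therefore uncertain.

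DHRS2 (chromosome 14, 23630115 to 23645639, plus strand, GRCh38) lay near the detection limit in Control. It was at 0.0199, 0.0335 and 0.0183 FPKM in Control 1 to 3 and at 0.989, 0.240 and 0.865 FPKM in OX-LDL 1 to 3. All OX-LDL libraries lay above all Control libraries, and OX-LDL 2 lay well under the other two. The Control mean was 0.0239 ± 0.0083 FPKM (SD, n = 3). The OX-LDL mean was 0.698 ± 0.401 FPKM (SD, n = 3), a ratio of means of 29.2.

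These levels rest on few reads. The deposited counts were 14, 23 and 13 in Control, or 3.50, 5.75 and 3.25 read pairs, against a limit of 3 read pairs (12 counts) that a count of 0 allows. In OX-LDL they were 554, 166 and 593, or 138.5, 41.5 and 148.25 read pairs. Over each group's summed read pairs, 12.5 and 328.25, the ratio scaled to total counts was 26.7. The exact 95% binomial interval, from the sums rounded to 13 and 328, was 14.8 to 48.6. It covers counting error only and leaves out the spread between libraries. It is not a test, since DHRS2 was chosen on these values. The edgeR log2 fold change was 4.80 (SE 0.61), and it was 5.21 without OX-LDL 2. Of 19510 genes tested, 59 (0.302%) had a larger fitted rise. DHRS2 reached the minimum mean of 0.1 FPKM only through OX-LDL and was chosen on this difference, so nothing is read from its rank.

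**Figure D2:**
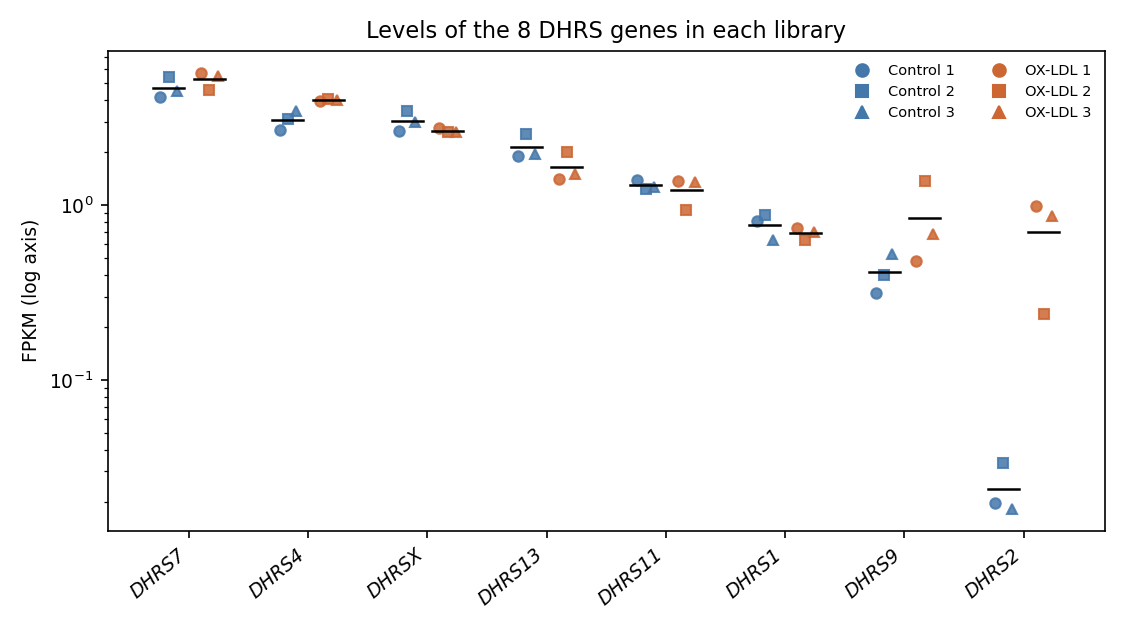
FPKM (log axis) of the 8 DHRS genes in each library, ordered by the Control mean, with Control in blue, OX-LDL in orange, a symbol for each replicate number and a bar for the group mean. DHRS2 moves from 0.0239 to 0.698 FPKM on average while the group means of every other gene drawn differ by at most 2.05 times.

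DHRS4 (chromosome 14, 23953734 to 23969279, plus strand) was the nearest member by sequence. It was at 2.68, 3.11 and 3.43 FPKM in Control and at 3.93, 4.02 and 4.01 FPKM in OX-LDL. Its groups did not overlap either, but the log2 fold change was 0.41 (SE 0.14). DHRS4 overlaps DHRS4-AS1 on the other strand, which was at 4.33 FPKM in Control and 3.37 in OX-LDL. The library kit marks strand, but whether the counting used it is not given in the sources used here. In Control the DHRS4 level was 92.9 to 187 times that of DHRS2, and in OX-LDL it was 3.98 to 16.8 times that of DHRS2.

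DHRS9 (chromosome 2, 169064789 to 169096167, plus strand), which oxidises retinol and some steroids, was the relative with the largest fitted difference. It was at 0.312, 0.397 and 0.526 FPKM in Control and at 0.478, 1.38 and 0.681 FPKM in OX-LDL. The groups overlapped, and OX-LDL 2 stood highest for DHRS9 where it stood lowest of the treated libraries for DHRS2. The log2 fold change was 1.07 (SE 0.43), and 0.53 without OX-LDL 2.

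The other 5 relatives had overlapping groups. DHRS7 (chromosome 14, 60144119 to 60169856, minus strand), an enzyme of the endoplasmic reticulum that reduces steroids and retinal, was the most abundant. It was at 4.15, 5.38 and 4.52 FPKM in Control and 5.73, 4.57 and 5.50 in OX-LDL, with a log2 fold change of 0.20 (SE 0.14). It overlaps PCNX4 and SCOCP1 on the other strand.

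DHRSX (chromosome X, 2219516 to 2500978, minus strand), which acts in the synthesis of dolichol, the lipid carrier of protein glycosylation, was at 2.64, 3.44 and 2.97 FPKM in Control. In OX-LDL it was at 2.76, 2.62 and 2.62 FPKM, inside the Control range for 1 library and just under it for the others. The log2 fold change was -0.15 (SE 0.13). DHRSX overlaps ZBED1 and DHRSX-IT1 on its own strand, which strand cannot separate.

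DHRS13 (chromosome 17, 28897781 to 28903079, minus strand) was at 1.92, 2.56 and 1.96 FPKM in Control and 1.41, 2.02 and 1.51 in OX-LDL. Its log2 fold change of -0.35 (SE 0.20) was the lowest of the 8, with OX-LDL 2 inside the Control range. It overlaps AC024267 on the other strand.

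DHRS11 (chromosome 17, 36591879 to 36600804, plus strand), a cytosolic reductase of steroids and other carbonyl compounds, was at 1.39, 1.24 and 1.27 FPKM in Control and 1.38, 0.934 and 1.35 in OX-LDL. Here OX-LDL 2 was the lowest library of all, and the log2 fold change was -0.07 (SE 0.19). DHRS1 (chromosome 14, 24290598 to 24299780, minus strand), a reductase of the endoplasmic reticulum, was at 0.813, 0.876 and 0.632 FPKM in Control and 0.737, 0.634 and 0.698 in OX-LDL. All OX-LDL values of DHRS1 lay inside the Control range, with a log2 fold change of -0.13 (SE 0.19). DHRS1, DHRS2, DHRS9 and DHRS11 overlap no other gene of the table.

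Across the 7 relatives, 3 fitted changes were above 0 and 4 below, with a median log2 fold change of -0.07 and a range of -0.35 to 1.07. The median over all 19510 genes tested was -0.0043. DHRS2 stood 4.87 above the median of its relatives on the log2 scale. Groups did not overlap for 2 of the 8, DHRS2 and DHRS4, against 37.2% of all genes tested. Since DHRS2 was chosen on this contrast, nothing is read from that count.

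In Control the order of levels was DHRS7, DHRS4, DHRSX, DHRS13, DHRS11, DHRS1, DHRS9 and DHRS2. Neighbours in that order had separate ranges except DHRS4 and DHRSX. In OX-LDL the first 5 genes kept their places with separate ranges, and DHRS9, DHRS2 and DHRS1 followed. The ranges of DHRS11 and DHRS9, of DHRS9 and DHRS2, and of DHRS2 and DHRS1 overlapped there, so by its mean DHRS2 was no longer the lowest of the 8. In OX-LDL 2 alone it still was, at 0.240 FPKM against 0.634 for DHRS1, the next.

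Summed over the 8 genes, Control held 15.4 ± 1.55 FPKM and OX-LDL 17.01 ± 0.529 (SD, n = 3 each). Without DHRS2 the sums were 15.4 and 16.3 FPKM. DHRS2 made up 0.155% of the summed mean in Control and 4.10% in OX-LDL. It remained a minor member of the family by level.

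Genes of the superfamily beyond these 8 passed the test in both directions. Of 66 other short-chain dehydrogenase genes in the table, 51 were tested, 6 rose and 5 fell, which is 21.6% of those tested. Over all genes 15.3% were called, 7.91% higher and 7.42% lower in OX-LDL. Their median log2 fold change was -0.04. Called genes had an edgeR adjusted p under 0.05 over all 19510 genes. The calls depended on single libraries. Without OX-LDL 2 there were 11 (21.6%, against 15.1% of all genes). Without Control 1 or Control 3 there were 6 (11.8%, against 9.21% and 10.2% of all genes). Without Control 2, OX-LDL 1 or OX-LDL 3 there were 3 (5.88%, against 5.95%, 6.47% and 5.96% of all genes). In those fits, with few calls, the larger share of the list was not kept.

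**Figure D3:**
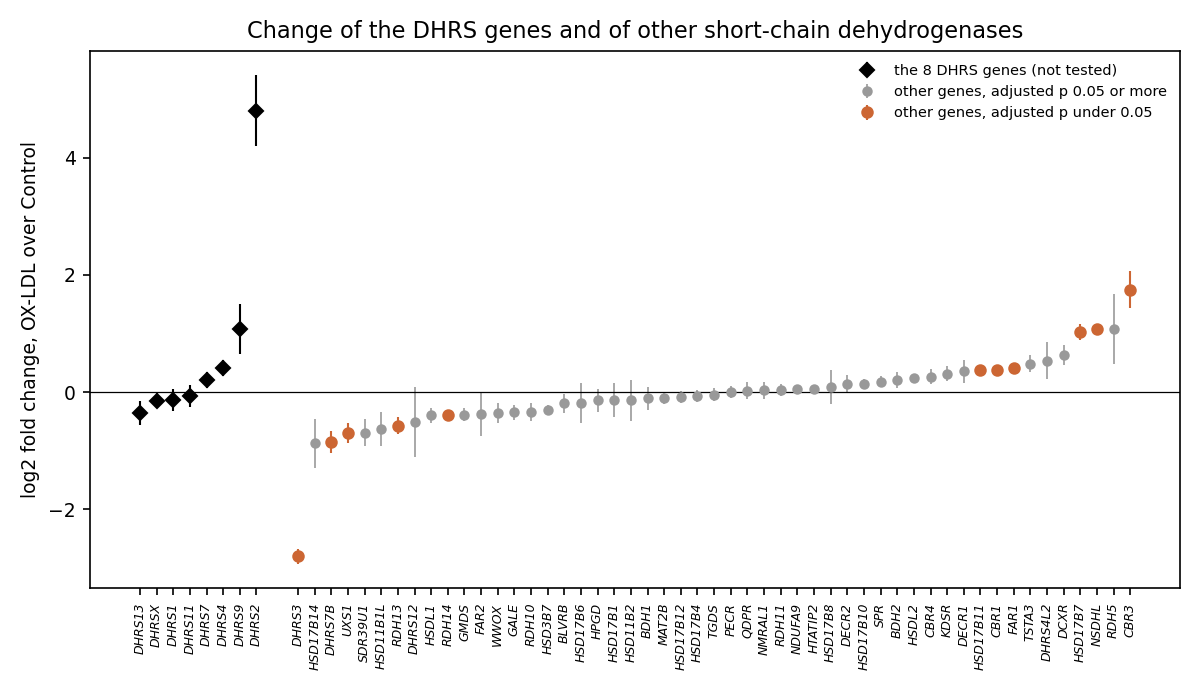
Log2 fold change of OX-LDL over Control (y axis, bars 1 SE, n = 3 each) for the 8 DHRS genes as black diamonds and for 51 other short-chain dehydrogenases as circles, orange where the adjusted p was under 0.05. DHRS2 at 4.80 lies above every other gene drawn, and DHRS3 at -2.80 lies below every other.

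Genes of retinoid handling gave 3 falls among 6 tested, with a median of -0.36, against 7.42% of all genes called lower. This list leaves out DHRS4, DHRS7 and DHRS9, which also act on retinal or retinol and are described above. Their log2 fold changes were 0.41 (SE 0.14), 0.20 (SE 0.14) and 1.07 (SE 0.43), all positive and given with no test. The groups of DHRS7 and DHRS9 overlapped. Of the 3 falls, DHRS3 passed in all 6 fits without 1 library, RDH13 in 1 and RDH14 in none. DHRS3, which reduces retinal to retinol and bears the same name stem, was at 25.7, 25.1 and 20.7 FPKM in Control and 3.54, 3.51 and 2.96 in OX-LDL. The groups lay far apart, and DHRS3 fell by 2.80 on the log2 scale (SE 0.13, edgeR adjusted p = 0.000209). RDH14, a retinal reductase, fell from 19.7 ± 1.60 to 14.7 ± 0.787 FPKM (edgeR adjusted p = 0.0339). RDH13, its mitochondrial relative, fell from 1.86 ± 0.170 to 1.23 ± 0.160 FPKM (edgeR adjusted p = 0.0407). RDH10, which makes retinal from retinol, was at 15.4 and 11.96 FPKM on average and did not pass, with an edgeR adjusted p of 0.202. RDH11, at 13.2 ± 1.27 and 13.2 ± 1.10 FPKM, did not pass either (edgeR adjusted p = 0.862). RDH5, a retinol dehydrogenase best known from the eye, was at 0.111 ± 0.0695 and 0.226 ± 0.0806 FPKM, a log2 fold change of 1.08 (SE 0.59, edgeR adjusted p = 0.275).

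Of the 5 tested DHRS-named genes outside the 8, DHRS3 and DHRS7B fell and none rose, with a median of -0.51. Over all genes, 7.42% were called lower, and DHRS3 is counted both here and among the genes of retinoid handling. DHRS7B, a peroxisomal enzyme of ether lipid synthesis, fell from 2.15 ± 0.401 to 1.16 ± 0.186 FPKM (edgeR adjusted p = 0.0264). DHRS4L2 had a log2 fold change of 0.54 (SE 0.32, edgeR adjusted p = 0.312), DHRS12 of -0.51 (SE 0.60, edgeR adjusted p = 0.624), and BDH2, an enzyme also named DHRS6, of 0.21 (SE 0.14, edgeR adjusted p = 0.359).

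Both cholesterol synthesis enzymes of the superfamily rose, where 7.91% of all genes were called higher. NSDHL, a sterol dehydrogenase, was at 13.9, 13.01 and 12.9 FPKM in Control and 26.7, 28.1 and 26.8 with OX-LDL, a fitted log2 change of 1.07 (SE 0.08, edgeR adjusted p = 0.00116). HSD17B7, a sterol ketoreductase, was at 1.89, 1.49 and 1.62 FPKM in Control and 3.59, 3.39 and 3.04 with OX-LDL, a fitted log2 change of 1.03 (SE 0.14, edgeR adjusted p = 0.00681). In both, the groups lay apart by more than the spread within either.

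Carbonyl, biopterin and prostaglandin reductases had 2 rises and no fall among 9 tested (22.2%), with a median of 0.18. Over all genes, 7.91% were called higher and 7.42% lower. CBR3, a carbonyl reductase, was at 2.33, 1.75 and 1.34 FPKM in Control and 6.72, 3.99 and 7.19 with OX-LDL, a fitted log2 change of 1.75 (SE 0.31, edgeR adjusted p = 0.0149). As with DHRS2, OX-LDL 2 was the lowest of the 3 treated libraries. CBR1, its paralog with broad carbonyl substrates, rose from 16.1 ± 0.728 to 20.5 ± 0.785 FPKM (edgeR adjusted p = 0.0197).

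Each of the remaining lists had a single call, 9.09% to 11.1% of the genes tested, against 15.3% of all genes. All of these superfamily lists are small, those with larger shares above included, and nothing is read from the share of any of them. Hydroxysteroid dehydrogenases had 1 call among 10 tested (median -0.16), where HSD17B11, an enzyme of lipid droplets, rose from 19.0 ± 1.21 to 24.0 ± 1.80 FPKM (edgeR adjusted p = 0.0384). Fatty acid, sphingolipid and ketone body enzymes had 1 call among 9 (median 0.0084), where FAR1, which makes fatty alcohols for ether lipids, rose from 12.9 ± 0.917 to 16.7 ± 1.19 FPKM (edgeR adjusted p = 0.0281). Extended and atypical members had 1 call among 11 (median -0.10), where UXS1, which makes UDP-xylose for proteoglycans, fell from 39.5 ± 8.65 to 23.8 ± 1.99 FPKM (edgeR adjusted p = 0.0352).

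All 11 called genes had the same sign in every fit run. DHRS3, NSDHL and HSD17B7 kept their calls in all 6 fits without 1 library, and the other 8 did not. RDH14 and HSD17B11 passed in none of the 6, with edgeR adjusted p of 0.0543 to 0.119 and 0.0519 to 0.123. RDH13 passed only without OX-LDL 2 (0.0423 to 0.116 over the 6) and UXS1 only without Control 3 (0.00807 to 0.115). DHRS7B and CBR1 passed only without Control 1 or OX-LDL 2 (0.0265 to 0.0899 and 0.0378 to 0.0646), and FAR1 only without Control 3 or OX-LDL 2 (0.0245 to 0.0967). CBR3 lost its call without Control 2, OX-LDL 1 or OX-LDL 3 (0.0108 to 0.0623). DHRS7B, NSDHL and HSD17B7 overlap no other gene of the table, and each of the other 8 overlaps at least 1, CBR3 its antisense gene CBR3-AS1 and RDH14 the readthrough gene NT5C1B-RDH14.

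**Figure D4:**
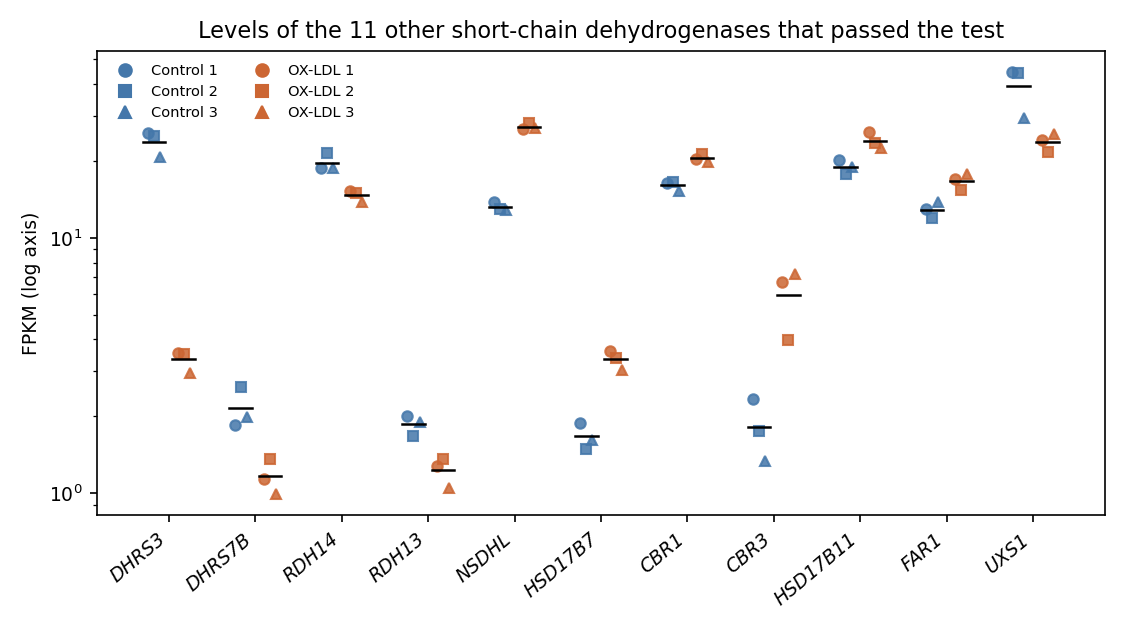
FPKM (log axis) in each library of the 11 other short-chain dehydrogenases with an adjusted p under 0.05, with Control in blue, OX-LDL in orange, a symbol for each replicate number and a bar for the group mean. In each of the 11 genes the groups do not overlap, and DHRS3 shows the widest gap, 23.8 against 3.34 FPKM.

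Few genes around DHRS2 passed the test, and none in the same direction. Of 53 genes whose bodies lie within 500000 bases of DHRS2, DHRS4 left out and DHRS4L2 included, 22 were tested and 1 was called (4.55%, against 15.3% of all genes), with a median log2 fold change of -0.05. The called gene was PCK2, the mitochondrial enzyme that makes phosphoenolpyruvate. PCK2 was at 11.4, 12.7 and 13.3 FPKM in Control and 2.28, 1.96 and 2.60 in OX-LDL, and it fell by 2.42 on the log2 scale (SE 0.13, edgeR adjusted p = 0.000365), opposite to DHRS2. PCK2 overlaps NRL on the other strand, which was at 0.0727 FPKM in Control and 0.167 in OX-LDL, and it kept its call in all 6 fits without 1 library. BCL2L2, which protects cells from apoptosis, had a log2 fold change of 2.41 (SE 0.99, edgeR adjusted p = 0.156) that came from OX-LDL 3 alone, at 6.39 FPKM against 0.385 to 0.615 in the other libraries. It overlaps the readthrough gene BCL2L2-PABPN1 on its own strand, so the split of reads between them is uncertain.

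**Figure D5:**
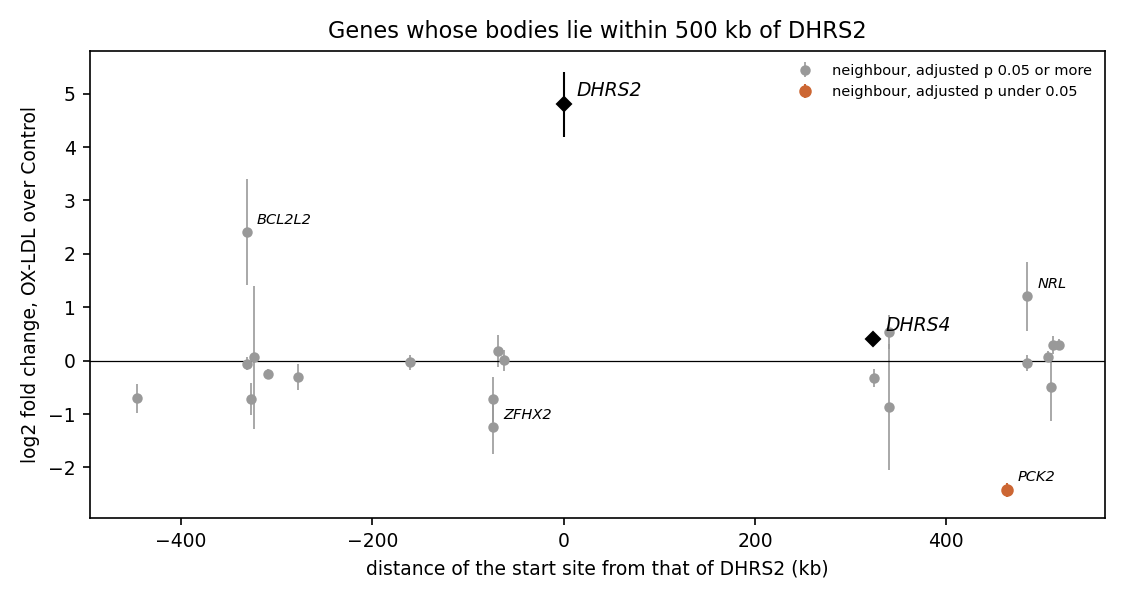
Log2 fold change of OX-LDL over Control (y axis, bars 1 SE, n = 3 each) against the distance of each start site from that of DHRS2 in kb (x axis), with DHRS2 and DHRS4 as black diamonds and 22 neighbouring genes as circles. PCK2, at -2.42 and in orange, is the 1 neighbour with an adjusted p under 0.05, while DHRS2 stands at 4.80.

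Another 9 genes that background knowledge ties to DHRS2 are given as well. They are the ubiquitin ligase MDM2, its relative MDM4 and the cell cycle inhibitor CDKN1A, factors described at its promoter (CEBPA, CEBPB, MYB) and class I histone deacetylases, whose inhibitors are known to induce DHRS2 in other cells. CDKN1A and CEBPB fell in the fit of all libraries and in each fit without 1 library, while HDAC3 rose in the former and in 2 of the 6 latter. The calls in the fit of all libraries were 3 of 9 tested (33.3%), against 15.3% of all genes. The list is small, and nothing is read from that share.

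CDKN1A, which restrains cyclin-dependent kinases, was at 17.4, 23.3 and 20.6 FPKM in Control and 6.77, 8.14 and 7.31 in OX-LDL. It fell by 1.43 on the log2 scale (SE 0.13, edgeR adjusted p = 0.00185), in all 6 fits without 1 library too. MDM2, at 4.18 ± 0.382 and 4.32 ± 0.603 FPKM, had a log2 fold change of 0.08 (SE 0.13, edgeR adjusted p = 0.738), and MDM4 one of 0.03 (SE 0.59, edgeR adjusted p = 0.981).

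CEBPB, a transcription factor of stress and inflammation, fell from 14.5 ± 1.92 to 6.28 ± 1.45 FPKM, by 1.17 on the log2 scale (SE 0.19, edgeR adjusted p = 0.0114). CEBPA had a log2 fold change of 0.19 (SE 0.21, edgeR adjusted p = 0.601), and MYB, at 0.133 and 0.126 FPKM, one of -0.03 (SE 0.35, edgeR adjusted p = 0.973). HDAC3 rose from 8.14 ± 0.131 to 10.4 ± 0.575 FPKM, by a log2 fold change of 0.38 (SE 0.07, edgeR adjusted p = 0.0185), a call lost without Control 1, Control 2, OX-LDL 1 or OX-LDL 3 (highest adjusted p 0.0685). HDAC1 and HDAC2 had log2 fold changes of -0.04 (SE 0.08, edgeR adjusted p = 0.799) and 0.14 (SE 0.07, edgeR adjusted p = 0.249). CDKN1A, CEBPB and HDAC3 each overlap a gene on the other strand (DINOL, CEBPB-AS1 and AC008781). These are transcript levels and hold no measure of protein or activity.

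The genes with profiles most like DHRS2 were sought among the 12259 genes that averaged 1 FPKM or more, across 6 libraries. By the root mean square difference of centred log2 levels, the nearest were the readthrough gene ATP6V1G2-DDX39B (0.793), AC078850 (1.01), MMP7 (1.02), CCDC80 (1.06) and AC245041 (1.09). MMP7, a matrix metalloproteinase of injured tubule epithelium, was at 1.69 FPKM in Control and 13.7 in OX-LDL, and CCDC80, an extracellular matrix protein, at 2.56 and 17.03. By Pearson's r across the 6 libraries the nearest were SEC23IP (0.999), PAAF1 (0.998), SF3B2 (0.997), ACTBL2 (0.997) and DNMBP (0.997). These genes shared the shape but not the size, since SEC23IP was 1.33 times and SF3B2 1.15 times as high in OX-LDL by group means. The 6 points share 2 groups and their libraries, and the values only describe which profiles are alike.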

How the data were processed

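Total RNA of 6 HK-2 samples was sequenced as poly(A) libraries that mark strand. The submitters' processing notes name GRCh38, cutadapt 1.9, HISAT2 2.0.4, StringTie 1.3.4d, edgeR and DESeq2. The authors deposited one table of estimated counts and FPKM per gene, in which a count of 0 is listed at 0.0001 FPKM. A count of 4 was 3.26 times as frequent as the neighbouring counts, and multiples of 4 stood out likewise, so 1 read pair was worth about 4 deposited counts.

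Counts were rounded and fitted with the edgeR 4.0.16 quasi-likelihood test (R 4.3.3, TMM) on the 19510 genes averaging 0.1 FPKM or more, two-sided, with Benjamini-Hochberg adjustment over all of them. The fit was also run on simulated counts with a single dispersion for all genes, as a check of the code only. That run says nothing about the calls made here. DESeq2 1.42.0 and limma 3.58.1 on log2(FPKM + pseudocount) were alternatives, as were RLE factors, total counts, other minimum levels, a replicate block and leaving out each library. Groups came from the labels, and no 2 libraries of the same group agreed within sampling noise. Gene coordinates are those of the deposited table. Promoter windows came from RefSeq GRCh38.p14 (7 of 8 genes matched), and coding sequences from GENCODE, aligned with Biopython 1.88, in place of a planned comparison of proteins, not used here. Genes named were the 8 DHRS genes, all called genes of the other short-chain dehydrogenase lists and of the neighbourhood, DHRS4L2, DHRS12, BDH2, 9 genes tied to DHRS2 by background knowledge (1 further gene of that list is not reported here), and the 5 nearest profiles by each measure. RDH5, RDH10, RDH11, BCL2L2, the marker genes, NRL and DHRS4-AS1 were named after their values were seen. The members and lists were chosen with earlier results of these data known.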

Additional observations from a re-analysis of the deposited data

How the results depend on the processing

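DHRS2 was higher in OX-LDL in every fit that kept it, and a minimum of 1 FPKM leaves it out. Its log2 fold change lay between 4.47 and 5.21 without 1 library, and its distance from the median of its 7 relatives between 4.63 and 5.11. A pseudocount compresses low genes by construction, and limma on log2(FPKM + 0.1) gave 2.52 for DHRS2 and 2.63 for the distance, and on log2(FPKM + 1) 0.70 and 0.76. DESeq2 called 17 of the 51 other short-chain dehydrogenases (33.3%) where edgeR called 11, and 4430 of all genes (22.7%) where edgeR called 2991. Leaving out 1 library gave 3 to 11 of the 51. Over all genes the count of 2991 became 1796 without Control 1, 1161 without Control 2, 1993 without Control 3, 1262 without OX-LDL 1, 2943 without OX-LDL 2 and 1163 without OX-LDL 3. With no minimum level RDH14, RDH13 and HSD17B11 lost their calls, and RDH13 did so with both higher pseudocounts too. The count near DHRS2 was 1 in each of these fits, and that of the 9 genes tied to DHRS2 was 2 to 3. Nothing is read from so small a list. Same-numbered libraries did not deviate together over all genes compared (r = -0.109, -0.034 and -0.0015), where differently numbered ones gave -0.0988 to 0.139. These values cannot tell whether libraries of the same number shared a culture or day, so any pairing is unknown. The fit with the replicate number as a block called 1636 genes in all and 6 of the other short-chain dehydrogenases, and HDAC3 lost its call in it. No value changed direction among those called. At 13 to 23 counts per Control library, depth limits the size of the DHRS2 ratio.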

Other observations

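DHRS4L1, a further copy beside DHRS4, had 0 counts in 5 libraries and 39 counts in OX-LDL 2, and DHRS7C had 0 counts in all 6. OX-LDL 2 was the highest OX-LDL library for DHRS4, DHRS9 and DHRS13 and the lowest for DHRS1, DHRS2, DHRS7 and DHRS11. BCL2L2-PABPN1, a readthrough transcript near DHRS2, was at 5.09 FPKM in Control 1 and 5.01 in OX-LDL 1 but at 0.253 to 0.620 in the other 4 libraries, across both groups.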
